A study of Mus musculus with 8 samples.

Results

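The genes described here are the transcription factors that set the granulocyte and monocyte programs of myeloid progenitors: the C/EBP proteins encoded by Cebpa, Cebpb, Cebpd, Cebpe and Cebpg, the repressor Gfi1, the ETS factor PU.1 encoded by Spi1, and Irf8, Klf4 and Runx1. The 10 genes were chosen by name, and every probe set whose sole gene symbol in the probe annotation was one of them was used. Of the 10 genes, 9 had such a probe set, giving 19 probe sets among the 22626 that were not controls, and Cebpe had none and was not analysed here. Expression was compared between Picalm-knockout and PICALM-rescued mouse hematopoietic cells to learn what the presence of PICALM, an adaptor of clathrin-mediated endocytosis, changes in these cells.

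The cells came from the fetal liver of embryonic day 14 Picalm-/- embryos with the fit1-5R mutation, which leaves a truncated protein without function, on the B6(Cg)-TyrC-2J/J strain. All of them carried MLL-ENL, a leukemia fusion oncogene delivered in the MSCV-IRES-eGFP retrovirus, had been immortalized by serial replating in methylcellulose, and grew in 5 ng/ml interleukin-3 and 50 ng/ml stem cell factor. The lines 6A, 6B, 6D and 84 each received either the empty MSCVneo retrovirus (Picalm-knockout, n = 4) or MSCVneo carrying human PICALM cDNA (PICALM-rescued, n = 4), with G418 selection, and each line and vector was measured on 1 Affymetrix array. The comparison is therefore between vectors within established lines. It contains no wild-type cells, and the rescued cells make human PICALM from a retrovirus, at a level that may lie above the physiological one. No probe set was named for Picalm in the annotation used here, so the labels were not checked against the level of the targeted gene.

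C/EBP-alpha opens the granulocyte pathway in myeloid progenitors, C/EBP-beta and C/EBP-delta act in later and stress-driven myelopoiesis, and C/EBP-epsilon drives the genes of the secondary neutrophil granules. PU.1 is needed for both branches of the pathway, IRF8 and KLF4 favor monocytes, and Gfi1 represses monocyte genes and is needed for neutrophils. Runx1, the DNA-binding subunit of core-binding factor, acts upstream of many of these genes in blood progenitors.

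Of the factors measured, 4 (Klf4, Gfi1, Cebpd and Spi1) were higher with PICALM in all 4 lines and had probe sets with an unadjusted p under 0.05, with mean differences from 0.23 to 1.19 on the log2 scale. Cebpb and Runx1 were also higher in all 4 lines at their brightest probe set, by 0.22 and 0.37. Without line 84 the mean difference at the brightest probe set was 0.71 for Klf4, 0.44 for Gfi1, 0.27 for Cebpd, 0.19 for Spi1, 0.06 for Cebpb and 0.14 for Runx1. Cebpa and Cebpg differed by 0.05 or less, and Irf8 was lower by 0.13 with both directions among the lines. None of the 19 probe sets passed the threshold that the methods of the study use, a false discovery rate of a little over 12%, when limma was fitted with a term for each line and Benjamini-Hochberg adjustment covered all probe sets. At that threshold 1 probe set of 22626 was higher in the rescued cells (0.00442%) and 17 were lower (0.0751%) in that fit. SAM, the test that the methods name, called 137 higher and 476 lower at the same rate when paired by line, and 11 and 39 unpaired. No probe set of these factors was among them either way. The SAM statistic was coded anew here and is not the add-in that the study used, so these counts are not those of the study.

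The promoter windows of the factors that were higher in all 4 lines, and that of Cebpa as a factor with little difference, are shown because these genes were higher in the same lines. RefSeq (build GRCm38.p6) gave windows of 300 bases, from 250 before to 50 after a start site, for 7 of the 10 genes, and held 10 such windows. For Cebpd, Cebpe and Spi1 the table of windows used here had none. The windows run 5′ to 3′ on the strand of the gene, and capitals mark matches on either strand to the letters TGTGGT (RUNX), TTGCNNAA (C/EBP), AGGAAG (ETS), TGACGC (a CRE-type element), TATAAA (the box bound by TBP) and CACGTG (E-box).
Klf4, chr4:55532426-55532725, minus strand: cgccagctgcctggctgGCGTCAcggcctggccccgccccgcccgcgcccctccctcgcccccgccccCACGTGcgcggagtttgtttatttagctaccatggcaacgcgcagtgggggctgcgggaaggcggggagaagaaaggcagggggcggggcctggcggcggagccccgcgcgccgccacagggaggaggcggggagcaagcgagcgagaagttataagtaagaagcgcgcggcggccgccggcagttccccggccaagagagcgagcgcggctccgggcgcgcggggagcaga
Cebpb, chr2:167688665-167688964, plus strand: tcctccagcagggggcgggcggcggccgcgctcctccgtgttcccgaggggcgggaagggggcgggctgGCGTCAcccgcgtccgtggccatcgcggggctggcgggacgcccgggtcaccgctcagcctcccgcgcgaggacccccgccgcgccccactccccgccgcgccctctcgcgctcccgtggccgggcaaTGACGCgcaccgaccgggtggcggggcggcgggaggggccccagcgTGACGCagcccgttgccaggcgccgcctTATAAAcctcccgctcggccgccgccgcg
Gfi1, first of 2 windows, chr5:107725756-107726055, minus strand: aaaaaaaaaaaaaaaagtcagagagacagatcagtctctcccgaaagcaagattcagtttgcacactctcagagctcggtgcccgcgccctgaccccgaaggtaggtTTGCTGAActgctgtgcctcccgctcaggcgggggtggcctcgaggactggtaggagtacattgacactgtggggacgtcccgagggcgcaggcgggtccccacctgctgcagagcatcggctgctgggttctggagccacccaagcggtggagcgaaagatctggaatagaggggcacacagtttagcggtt
Runx1, first of 2 windows, chr16:92826025-92826324, minus strand: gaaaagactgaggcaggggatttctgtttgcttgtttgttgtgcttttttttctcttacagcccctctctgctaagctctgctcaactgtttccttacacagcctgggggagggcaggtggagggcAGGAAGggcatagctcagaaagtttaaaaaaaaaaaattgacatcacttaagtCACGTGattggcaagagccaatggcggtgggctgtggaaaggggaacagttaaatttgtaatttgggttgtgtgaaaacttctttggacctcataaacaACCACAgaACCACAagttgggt
Cebpa, chr7:35119043-35119342, plus strand: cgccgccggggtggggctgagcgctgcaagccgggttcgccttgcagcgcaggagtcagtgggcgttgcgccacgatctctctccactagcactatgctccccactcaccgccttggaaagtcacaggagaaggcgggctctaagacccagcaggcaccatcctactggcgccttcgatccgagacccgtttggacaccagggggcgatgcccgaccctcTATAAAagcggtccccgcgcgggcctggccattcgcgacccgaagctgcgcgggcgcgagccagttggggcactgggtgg

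The Cebpb window held 3 CRE-type matches, starting at -181, -53 and -7 in bases from the start site, and the Klf4 window held 1, starting at -233. These were the 2 of the 10 windows with this match, which 7.41% of all 32841 windows held. The same 2 windows had 5 and 4 matches to GGGCGG, the GC box recognized by Sp1 and Klf proteins, which are left in lower case. A GC box was found in 4 of the 10 windows and in 35.7% of all windows. The C/EBP match lay in the first Gfi1 window, at -143, and in no other window of these genes, against 10.8% of all windows. The first Runx1 window held 2 RUNX matches, on the minus strand and starting 28 and 36 bases after the start site, where 16.8% of all windows held any. It also held 1 ETS match (35.4% of all windows) and 1 E-box (7.15%), and Klf4 held the other E-box. TATAAA was found in 3 of the 10 windows and in 13.6% of all windows. It began at -30 in Cebpa and at -31 in the first Irf8 window, which is not shown. In Cebpb it began 21 bases after the start site. A match describes the letters in the window and is not a measured binding site.

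Klf4, a zinc finger factor of monocytes, had the largest difference of the 9 measured genes. On its brighter probe set, 1417394_at, the knockout arrays read 9.88, 9.20, 8.99 and 5.74 in lines 6A, 6B, 6D and 84 on the log2 scale. The rescued arrays of the same lines read 10.13, 10.06, 10.01 and 8.38. The rescued array was above the knockout array of its line each time, by 0.25, 0.87, 1.02 and 2.64, while the groups overlapped because rescued line 84 lay below 3 of the knockout arrays. The 5.74 of knockout line 84 lay below the mean levels of the hepatocyte markers on all 8 arrays (5.97 to 6.10). It may thus lie near the floor, which would limit what the difference of that line measures. The means were 8.45 ± 1.85 and 9.64 ± 0.84 (SD, n = 4), a mean difference of 1.19 (95% interval 0.27 to 2.12) or 2.29-fold, with a limma adjusted p of 0.343. Without line 84 the difference was 0.71, with an adjusted p of 0.247.

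The dimmer Klf4 probe set, 1417395_at, gave the same order of lines within each vector except for 6B and 6D among the rescued arrays. Its knockout levels were 9.29, 8.78, 8.52 and 6.48 and its rescued levels 9.65, 9.34, 9.49 and 8.28. The mean difference was 0.92 (95% interval 0.33 to 1.51), and the limma adjusted p was 0.319. Without line 84 it was 0.63, with an adjusted p of 0.234. Both probe sets were thus higher with PICALM in 4 of 4 lines.

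**Figure D1:**
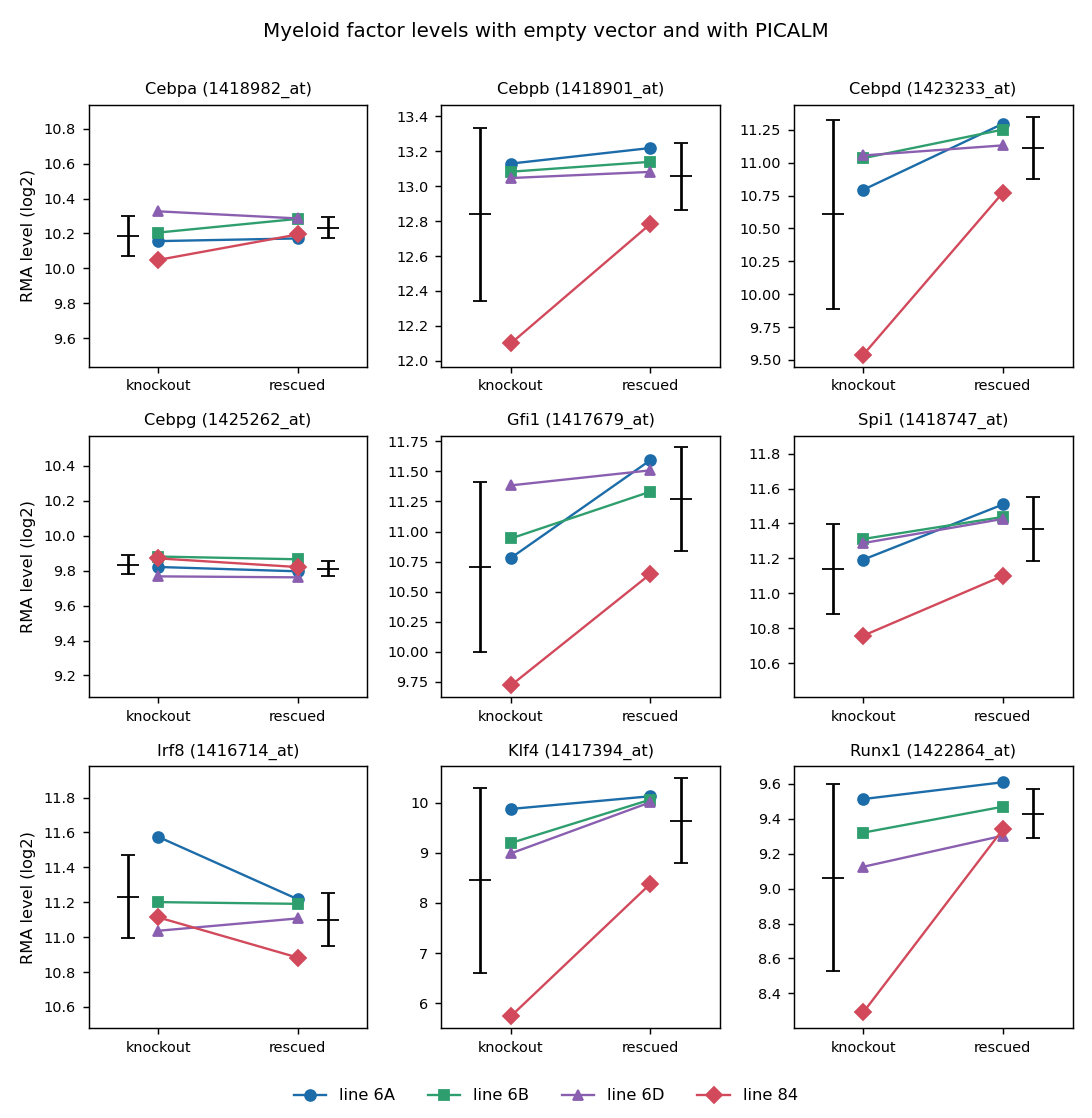
RMA level (log2) of the brightest probe set of each measured factor on the knockout and rescued array of each cell line, joined by line, with the group mean and SD (n = 4) in black beside them; the vertical range differs between panels. Klf4 in line 84 reads 5.74 with the empty vector and 8.38 with PICALM, while Cebpa and Cebpg stay within 0.15 of their own line's other array.

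Gfi1, a zinc finger repressor of granulocyte precursors, was measured by 1 probe set. Its knockout levels were 10.78, 10.94, 11.38 and 9.72 in lines 6A, 6B, 6D and 84, and its rescued levels were 11.59, 11.33, 11.51 and 10.65. Gfi1 was higher with PICALM in every line, and in line 6A the knockout array was below its rescued array by 0.81 while line 6D differed by 0.12. The groups overlapped through line 84, whose rescued array was below 3 of the knockout arrays, and through knockout line 6D, which was above rescued line 6B. The means were 10.71 ± 0.71 and 11.27 ± 0.43 (SD, n = 4), and the mean difference of 0.56 (95% interval 0.21 to 0.91), or 1.48-fold, had a limma adjusted p of 0.318. Without line 84 the difference was 0.44.

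Spi1, which encodes PU.1, showed a more even difference. Its probe set read 11.19, 11.31, 11.29 and 10.76 on the knockout arrays and 11.51, 11.44, 11.43 and 11.10 on the rescued arrays. The differences were 0.32, 0.13, 0.14 and 0.34, so every line was higher with PICALM, and the groups overlapped through rescued line 84. The mean difference was 0.23 (95% interval 0.09 to 0.37), or 1.17-fold, with the smallest unadjusted limma p among the members and an adjusted p of 0.318. Leaving out line 84 gave 0.19.

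Cebpd encodes C/EBP-delta, a factor of late granulocyte maturation and acute-phase responses. Its brighter probe set, 1423233_at, read 10.79, 11.04, 11.06 and 9.54 on the knockout arrays and 11.30, 11.25, 11.13 and 10.77 on the rescued arrays. The 3 other rescued arrays lay above all knockout arrays, and rescued line 84 lay below knockout lines 6A, 6B and 6D. The mean difference was 0.51 (95% interval 0.03 to 0.98), or 1.42-fold, with a limma adjusted p of 0.381, and it was 0.27 without line 84. The dimmer probe set, 1456605_at, was higher in lines 6A, 6B and 84, by 0.28, 0.22 and 0.75, and was the other way in line 6D, with a difference of -0.19.

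Cebpb, whose C/EBP-beta protein supports emergency granulopoiesis and macrophages, was nearly level in 3 lines. Its brighter probe set, 1418901_at, read 13.13, 13.08, 13.05 and 12.10 on the knockout arrays and 13.22, 13.14, 13.08 and 12.78 on the rescued arrays. The difference was 0.09, 0.06 and 0.04 in lines 6A, 6B and 6D and 0.68 in line 84. The mean difference was 0.22 (95% interval -0.08 to 0.51), with a limma adjusted p of 0.501, and it was 0.06 without line 84. The second probe set, 1427844_a_at, went the same way, by 0.58 in line 84 and by 0.17 or less in the others.

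Cebpa, the C/EBP factor that starts granulocyte commitment, read 10.16, 10.20, 10.33 and 10.05 on the knockout arrays and 10.17, 10.28, 10.29 and 10.19 on the rescued arrays. The 4 differences ran from -0.04 to 0.15, and their mean was 0.05 (95% interval -0.07 to 0.17). Cebpg, a C/EBP partner without an activation domain that pairs with ATF4, lies 62726 bases from Cebpa on chromosome 7. Its brightest probe set differed by -0.01 to -0.05, with a mean of -0.02 (95% interval -0.12 to 0.08), and its other 2 probe sets gave -0.04 and 0.08 with mixed directions. At the brightest probe sets of both genes the 95% intervals end below the 0.23 of Spi1.

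Irf8, which favors monocytes and dendritic cells over neutrophils, had a lower mean in the rescued cells. Its brighter probe set, 1416714_at, read 11.57, 11.20, 11.04 and 11.11 on the knockout arrays and 11.22, 11.19, 11.11 and 10.88 on the rescued arrays. It was lower with PICALM in lines 6A and 84, with differences of -0.36 and -0.23, and within 0.07 in lines 6B and 6D. The second probe set, 1448452_at, gave -0.46, -0.05, 0.16 and -0.36 in the same order of lines. The mean differences were -0.13 (95% interval -0.33 to 0.07) and -0.18 (95% interval -0.46 to 0.10), with limma adjusted p values of 0.536 and 0.539.

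Runx1 was measured by 5 probe sets with unequal differences. The brightest, 1422864_at, read 9.51, 9.32, 9.13 and 8.29 on the knockout arrays and 9.61, 9.47, 9.30 and 9.34 on the rescued arrays. Its difference was 0.10, 0.15, 0.18 and 1.05, so line 84 with the empty vector stood below all other arrays and its rescued array lay among the rest. The mean difference was 0.37 (95% interval -0.05 to 0.79), with a limma adjusted p of 0.440, and it was 0.14 without line 84. Probe sets 1427650_a_at and 1422865_at differed by 0.99 and 0.84 in line 84, while 1452531_at and 1452530_a_at differed by 0.27 and -0.07 there. Runx1 spans chr16:92601466-92826074 and makes several transcripts from 2 promoters. Which of them each probe set reads was not analysed here.

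**Figure D2:**
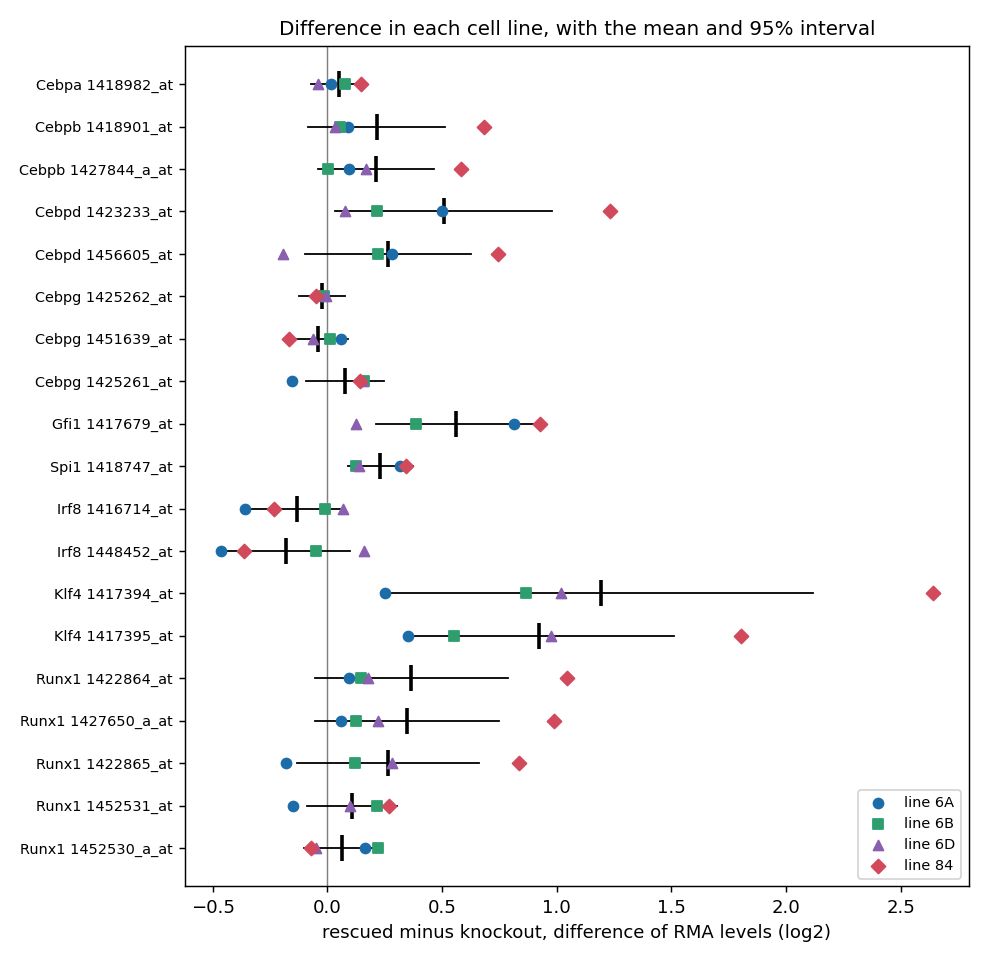
Rescued minus knockout difference (log2) of all 19 probe sets, with a symbol for each cell line, the mean as a vertical bar and its 95% interval from limma as a horizontal line. Both Klf4 probe sets lie to the right of 0 in all 4 lines, and the diamonds of line 84 stand apart to the right for Klf4, Cebpb, Cebpd and 3 of the 5 Runx1 probe sets.

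In counts, 5 of the 19 probe sets had an unadjusted limma p under 0.05 and were higher in the rescued cells, namely both Klf4 probe sets, Gfi1, Spi1 and the brighter Cebpd probe set, against 6.17% of all probe sets. None of the 19 was lower at that level, against 6.32% of all. By gene, 6 of 9 were higher in all 4 lines at the brightest probe set, where 13.4% of 12393 genes were, and 1 of 9, Cebpg by at most 0.05 (not with the arrays centred on their medians), was lower in all 4 lines, where 12% of genes were. The median difference of the 9 genes was 0.23, and 0.14 without line 84, beside 0.01 over all genes. Without line 84, 7 of the 19 probe sets had an unadjusted limma p under 0.05, all of them higher, against 7.44% of all probe sets that were higher and 14.3% in either direction. None of the 9 genes had groups that did not overlap, against 2.07% of all genes with every rescued array above every knockout array and 1.44% with every rescued array below. Without pairing, the exact permutation p values of the brightest probe sets ran from 0.171 for Spi1 upward, where 4 arrays against 4 allow 0.0286 at the least. By sign changes over the 4 lines the exact p was 0.125, the smallest that design allows, for the 7 genes with 1 direction in all lines.

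The size of the differences depended on the line. For lines 6A, 6B, 6D and 84 the median difference over the 9 genes was 0.10, 0.13, 0.08 and 0.68, and each time 7 of the 9 were higher with PICALM. Over all genes the median lay between -0.01 and 0.02 in every line. Line 84 with the empty vector had the lowest of the 4 knockout levels in 7 of the 9 genes, all but Cebpg and Irf8, where 31.4% of all genes had their lowest knockout level in that line. With PICALM, line 84 was the lowest rescued array in 6 of the 9, namely Cebpb, Cebpd, Gfi1, Spi1, Irf8 and Klf4, against 32.4% of all genes. Relative to the mean of the other lines with the same vector, line 84 stood at -3.61 with the empty vector and -1.69 with PICALM for Klf4. For Gfi1 it stood at -1.31 and -0.83 on the same log2 scale.

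The difference of line 84 was set against the mean difference of the other 3 lines with limma, a test added after the values were seen and in which the single line is assumed to vary like the others. For 7 of the 19 probe sets the difference was larger in line 84 at the threshold given above, against 3.82% of all probe sets, and for none was it smaller, against 3.2%. The 7 were 2 of Runx1 (larger by 0.91 and 0.85, adjusted p 0.0204 and 0.0312), both of Cebpb (0.62 and 0.50, adjusted p 0.0430 and 0.0945), both of Klf4 (1.93 and 1.18, adjusted p 0.0557 and 0.0962) and the brighter one of Cebpd (0.97, adjusted p 0.0749). For Gfi1 and Spi1 the line 84 difference exceeded the others by 0.48 and 0.15, with limma adjusted p values of 0.389 and 0.531. At an adjusted p under 0.05 the number was 3, and without line 6B it was 4. The same test on lines 6A, 6B and 6D found no member probe set, but of all 22626 probe sets it called only 0, 1 and 0. In those tests line 84 was among the lines compared against, which widens the spread. They therefore cannot decide whether the factors differ in those lines. Line 84 was known to stand apart before the test was made, so its result is a description of that line.

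**Figure D3:**
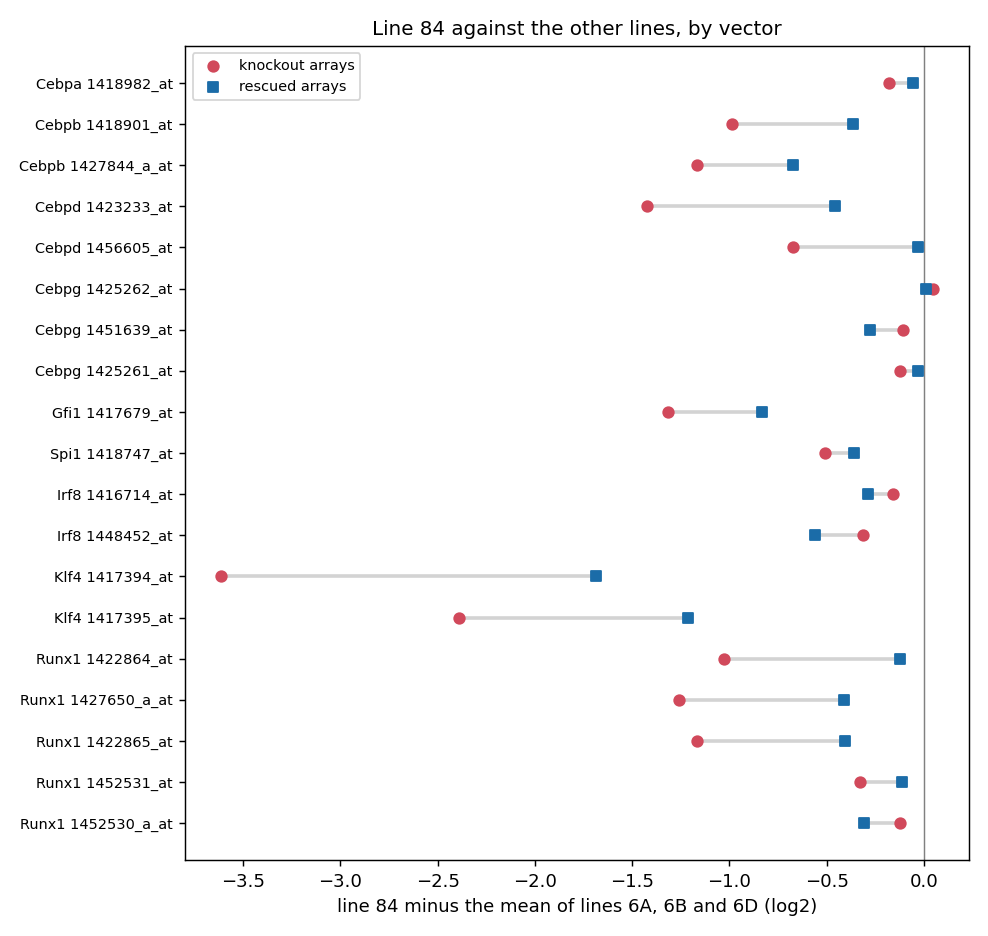
Level of line 84 minus the mean level of lines 6A, 6B and 6D (log2) for each probe set, on the knockout arrays (circles) and the rescued arrays (squares). For Klf4 1417394_at the gap is -3.61 with the empty vector and -1.69 with PICALM, and for Cebpa it is -0.18 and -0.05.

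The cells expressed the markers of hematopoietic cells at a mean level of 11.27 to 11.42 on all 8 arrays, and those of hepatocytes, the other main cells of fetal liver, at 5.97 to 6.10. Mean levels of markers of other myeloid cells differed between the vectors too, though no gene of the 11 marker lists passed in limma at the threshold above. Since the arrays are of bulk RNA, fewer cells of a type and less RNA per cell cannot be told apart. Of the 9 neutrophil granule markers, 7 were higher with PICALM in all 4 lines, where 13.4% of all genes were. The mean level of the 9 was 8.04 to 9.50 on the knockout arrays and 9.86 to 11.42 on the rescued arrays. The mean difference of these markers was 2.18, 1.03, 0.49 and 1.82 in lines 6A, 6B, 6D and 84. Several of them, Camp, Ltf, Lcn2 and Ngp among them, are genes that the study listed from these arrays, so the list is not independent of them. The azurophil granule markers of promyelocytes differed by 0.28, 0.16, 0.06 and 0.89, with line 84 again the lowest of the knockout arrays at 12.78 against 13.70 to 13.95. The difference of line 84 was 2.58 for Elane and 0.98 for Ms4a3, but 0.18, 0.33 and 0.38 for Mpo, Ctsg and Prtn3. Of 9 mast cell and basophil markers, 5 were higher and 1, Tpsab1, was lower in all lines, where 13.4% and 12% of all genes were. Their mean level was 5.70 to 7.02 on the knockout and 5.90 to 8.36 on the rescued arrays. Eosinophil markers differed by 2.18 in line 84 and by 0.39 or less in the other lines, and megakaryocyte markers by -1.06 in line 84, where their knockout level was 8.61 against at most 6.28 in the others. Monocyte and macrophage markers differed by -0.12, -0.0025, 0.26 and -0.05. Markers of erythroid cells, B and T lymphocytes and dendritic cells had mean levels of 5.18 to 6.58 over the 8 arrays. The dendritic cell markers differed by -0.59 in line 84, with Flt3 at -1.59, and by -0.13 to 0.11 in the other lines. The erythroid markers differed by 0.07 to 0.19 and the lymphocyte markers by -0.11 to 0.15. The part of these cell types in the factor levels was not tested.

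The genes that these factors are known to control were examined as lists. Of 18 listed targets of C/EBP-alpha and C/EBP-epsilon 17 were measured. Of these, 11 were higher and none was lower in all 4 lines, where 13.4% and 12% of all genes were. Their median difference was 0.54. This list shares its granule genes with the neutrophil markers above. Camp, the cathelicidin of secondary granules, was higher by 4.23, 1.18, 1.16 and 2.74 in lines 6A, 6B, 6D and 84. Lcn2, which encodes lipocalin-2, was higher by 2.67, 1.54, 0.64 and 2.48, and Ngp, neutrophilic granule protein, by 3.19, 1.49, 0.43 and 2.92. Csf3r, the receptor for granulocyte colony-stimulating factor, was higher by 0.66, 0.42, 0.18 and 0.19. None of the 17 passed in limma, where these 4 had adjusted p values of 0.312, 0.260, 0.318 and 0.318.

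Of 18 listed targets of PU.1 and IRF8 in monocytes and macrophages 16 were measured. With PICALM, 6 of these read higher in 4 of 4 lines and 2 read lower in 4 of 4, where 13.4% and 12% of all genes did. The median difference was 0.12. Itgam, which encodes the integrin CD11b, was higher by 0.82, 0.46, 0.22 and 1.39, and Ncf4, a subunit of the phagocyte oxidase, by 0.30, 0.19, 0.16 and 0.41. Itgam is among the genes that the study listed as upregulated on these arrays. Csf1r, the receptor for macrophage colony-stimulating factor, was lower in every line (-0.29, -0.22, -0.13 and -0.07). Cd14, a co-receptor for lipopolysaccharide, was higher by 0.06, 0.15, 0.29 and 0.57. The limma adjusted p values of these 4 were 0.323, 0.308, 0.338 and 0.353.

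**Figure D4:**
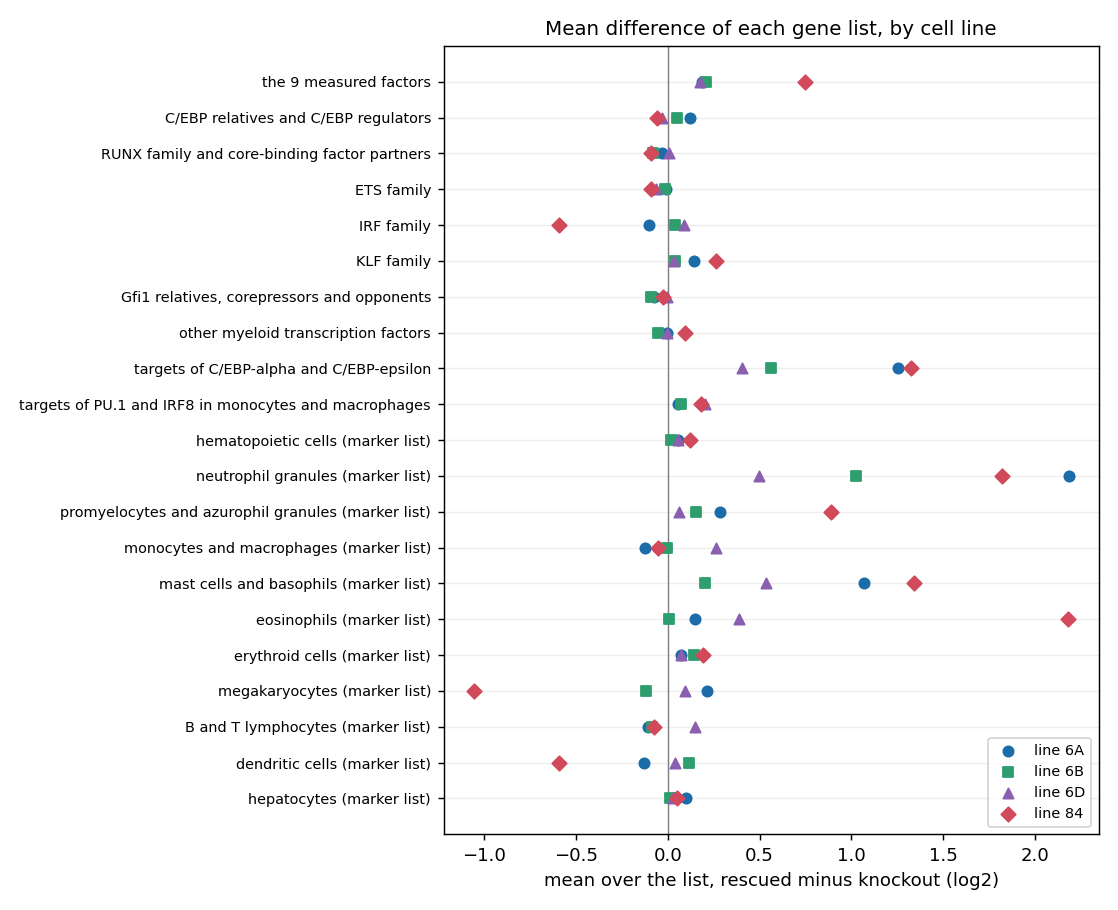
Mean rescued minus knockout difference (log2) over each gene list in each cell line, with the 9 measured factors on the top row, the lists of related factors and targets below them and the cell type marker lists at the bottom. The 7 lists of related factors lie between -0.10 and 0.26 apart from the IRF family in line 84 at -0.59, while neutrophil granule markers lie at 0.49 to 2.18.

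The relatives, partners and regulators of the factors went in both directions, with more of them lower than higher in all 4 lines. Of 92 such genes on 7 lists 86 were measured and none passed in limma. At an unadjusted limma p under 0.05, 9 were higher and 10 lower, against 6.17% and 6.32% of all probe sets. With PICALM, 10 of them read higher in 4 of 4 lines and 18 read lower in 4 of 4, where 13.4% and 12% of all genes did. The median difference was -0.01. In the ETS family, to which PU.1 belongs, Ets1 had the smallest p, with differences of 1.23, 0.73, 0.51 and 0.90 (adjusted p 0.191). Its relatives Spib, Elf1 and Erg had means of -0.29, -0.22 and -0.24 and adjusted p values of 0.318, 0.318 and 0.347. In all, 5 of the 14 ETS genes were lower and 1 was higher at an unadjusted limma p under 0.05, against the 6.32% and 6.17% of all probe sets given above.

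Among 12 measured relatives of Klf4, 4 were higher in all 4 lines and 1 was lower, where 13.4% and 12% of all genes were. Klf5 was higher by 1.21, 0.12, 0.30 and 1.20 and Klf6 by 0.24, 0.16, 0.21 and 0.27, with limma adjusted p values of 0.342 and 0.281. Klf5 is among the genes that the study listed as upregulated on these arrays. Klf13 was higher by 0.16, 0.16, 0.04 and 0.13, and Klf9 was lower in every line, with a mean of -0.18 (adjusted p 0.370 and 0.328).

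Of 8 measured relatives of Irf8, none was higher and 2 were lower in all 4 lines, where 13.4% and 12% of all genes were. Irf7, which amplifies the interferon response, differed by -0.09, -0.06, -0.24 and -2.44, so most of its mean of -0.71 came from line 84. Irf1 differed by -0.06, -0.14, -0.19 and -0.62. Irf2 and Irf9 had means of -0.17 and -0.17 with both directions among the lines. The limma adjusted p values were 0.523, 0.388, 0.547 and 0.751.

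Around Gfi1, 13 relatives, corepressors and opponents were measured. Id3, an inhibitor of E proteins, differed by -0.42, -0.52, -0.28 and -0.29 (limma adjusted p 0.208), and Kdm1a, the histone demethylase that Gfi1 recruits, by -0.16, -0.24, -0.18 and -0.36 (adjusted p 0.310). Egr1, an opponent of Gfi1 in the monocyte choice, had a mean of 0.32 and was higher in lines 6B, 6D and 84 (adjusted p 0.353). Hdac2, another partner, had a mean of -0.15 (adjusted p 0.410).

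The partners of Runx1 and the regulators of the C/EBP proteins differed little between the vectors. Cbfb, the subunit that pairs with Runx1, was lower in all 4 lines with a mean of -0.07, and the corepressors Cbfa2t3, Cbfa2t2 and Runx1t1 had means of -0.13, -0.03 and -0.01. Trib2, which directs C/EBP-alpha to degradation, had a mean of 0.12 and was higher in all lines, and Atf5 had one of 0.16. Trib3 and Ddit3, a C/EBP relative that blocks its partners, had means of -0.10 and -0.19. All 8 had limma adjusted p values of 0.3665 or more. Among 28 other myeloid factors, Stat3, which acts below the granulocyte colony-stimulating factor receptor, had the smallest p, with differences of 0.37, 0.06, 0.18 and 0.35 (adjusted p 0.328). Jun was lower in all lines with a mean of -0.20, Mitf was higher with a mean of 0.13, and Myc was lower with a mean of -0.11 (adjusted p 0.352, 0.383 and 0.402).

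For the 3 factors whose mean difference was over 0.5, the 3 genes with the most similar pattern were found by the root mean square difference of the levels, each centred on its own mean, over the 8 arrays. Cebpd was followed most closely by Xdh, xanthine dehydrogenase, at 0.08, and then by Sorl1 and Igsf6 at 0.09 each, where the SD of Cebpd over the arrays was 0.57. Xdh differed by 0.39, 0.41, 0.22 and 1.07 in the 4 lines, beside 0.50, 0.22, 0.08 and 1.23 for Cebpd. Gfi1 was followed by Daglb, Cemip2 and Mxi1 at 0.14, 0.15 and 0.17, with an SD of 0.62 for Gfi1. For Klf4 the nearest genes lay farther away, at 0.37 for Elane, 0.40 for Pde2a and 0.40 for Pilra, with an SD of 1.47 for Klf4. Elane, the neutrophil elastase gene, read 9.91 with the empty vector and 12.48 with PICALM in line 84, and 13.26 to 13.85 on the arrays of the other 3 lines. Elane and Klf4 thus shared the low knockout level of line 84. The likeness without line 84 was not computed.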

How the data were processed

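Each of the 8 samples was a culture of 1 line and vector hybridised to 1 mouse Affymetrix array (the labels and the methods name different versions of it). The authors normalized the scans with RMA and deposited log2 values, 1 for each of 22690 probe sets, which were used as given. The medians of the arrays lay between 7.32 and 7.35. RMA pools the probes of a probe set and sets all arrays to 1 distribution, so a shift shared by most genes would be removed. No read depth applies, and the number of arrays limits the precision.

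After 64 control probe sets were left out, 22626 were tested. The probe annotation gave 20380 of them 1 gene symbol, 691 several and 1555 none, and 12393 genes were represented by their brightest probe set. limma 3.58.1 in R 4.3.3 was fitted with the cell line as a fixed block, with Benjamini-Hochberg adjustment over all 22626 and the false discovery rate of the methods, a little over 12%, as the threshold. The labels give the line of each array, and the deviations of the 2 arrays of a line from their group means correlated at 0.62 to 0.81, with 8 of 8 arrays closest to the array of their own line. The p-values of this fit measure how the rescued minus knockout difference varied from line to line, with the variance of each probe set drawn toward that of all. Exact two-sided permutation tests over 70 arrangements of the arrays and 16 sign changes of the lines were run for single genes. SAM, which the methods name, was coded anew, not run with the add-in of the study, in a paired and an unpaired form. Beside it stood the methods' t-test, other normalizations and filters, and fits without each line or array. The fits without a single array were not paired by line. The test of line 84 against the other 3 was added after the data were seen. The limma and SAM fits were tried on simulated data, with line effects for the paired forms only. The unpaired forms and the line 84 test were tried without line effects, unlike these arrays.

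All measured members are named, with the 3 nearest genes of each member whose mean difference exceeded 0.5, and the 4 genes with the smallest p in each of 9 lists of relatives and targets. A further 11 lists mark cell types. The members and lists were chosen with earlier results of these data known. Promoter windows came from RefSeq (GRCm38.p6).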

Additional observations from a re-analysis of the deposited data

Results flagged for a closer look

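In 38 groups of 4 arrays, 1 for each probe set and vector, 6 held an array farther from the rest than Dixon's 95% limit allows. The limit is set for about 1 in 20 independent groups. These groups share arrays and genes and are not independent, and the share over all probe sets is not given here, so the count is a description. All 6 were arrays of line 84 at the low end. On the knockout arrays line 84 read 12.10 for Cebpb 1418901_at with the others at 13.05 to 13.13, and 10.41 for Cebpb 1427844_a_at with the others at 11.49 to 11.66. It read 6.81 for Cebpd 1456605_at against 7.44 to 7.55, and 7.37 for Runx1 1427650_a_at against 8.54 to 8.71. On the rescued arrays line 84 read 8.38 for Klf4 1417394_at against 10.01 to 10.13, and 8.36 for Runx1 1427650_a_at against 8.77 on each of the others.

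For 7 probe sets the rescued minus knockout difference was larger in line 84 than the mean of the other 3 lines, in a limma test of the difference itself made after the data were seen. The excess was 0.62 and 0.50 on the log2 scale for Cebpb 1418901_at and 1427844_a_at, 0.97 for Cebpd 1423233_at, 1.93 and 1.18 for Klf4 1417394_at and 1417395_at, and 0.91 and 0.85 for Runx1 1422864_at and 1427650_a_at. All 7 rest on a single line, and no second culture of line 84 was measured.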

How the results depend on the processing

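None of the 19 probe sets of the 9 factors passed under any alternative except 1, Spi1, in the methods' t-test paired by line at an unadjusted p under 0.05. Of 350 values of single probe sets under the alternatives, 344 kept their direction and their side of the threshold and 6 turned, and the lowest adjusted p was 0.181. The turned values were 0.0042 for Cebpg 1425262_at as a mean over probe sets, 0.0024 for Cebpg 1451639_at without line 84 and 0.0294 without the rescued array of line 84, and, without the knockout array of line 84, those of both Cebpb probe sets and Runx1 1422865_at. The fits without a single array compared group means without pairing by line, so the low level of line 84 entered them. With both arrays of line 84 left out, Cebpb 1418901_at, Cebpb 1427844_a_at and Runx1 1422865_at stayed higher, by 0.0603, 0.089 and 0.0745. With a line or array left out these 4 ran from -0.0876 to 0.0294 for Cebpg 1451639_at, from -0.0306 to 0.3128 and from -0.0786 to 0.3804 for Cebpb 1418901_at and 1427844_a_at, and from -0.0269 to 0.467 for Runx1 1422865_at. The median of the 9 genes was 0.14 without line 84 and 0.23 to 0.28 otherwise. Genes higher in all lines numbered 4 with probe sets averaged and 6 or 7 otherwise, and genes lower in all lines 0 with median centring or averaged probe sets and 1 to 2 with a line left out.

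Over all probe sets, 1 higher and 17 lower passed with the line as a block, and 0 and 0 without the replicate block. SAM as coded here called 137 higher and 476 lower paired by line (replicate block), and 11 and 39 unpaired. The methods' t-test gave 617 and 562 unpaired and 994 and 1217 paired (replicate block) before adjustment, and 0 and 0 after it either way. Array weights gave 25 and 92, trended and robust variance 19 and 81, and an adjusted p under 0.05 gave 0 and 4. Without the dimmest 40% of probe sets 0 were higher and 21 lower, and with probe sets averaged by gene 1 and 2. Leaving out a line or an array gave 0 to 8 higher and 0 to 42 lower, 8 and 42 without line 84 and 0 in every other case. In limma and SAM the replicate block changed no call of a member, and in the methods' t-test before adjustment it added the call of Spi1. For line 84 against the others, 3 member probe sets passed at an adjusted p under 0.05, 9 with trended and robust variance, and 4 to 7 with another line left out, 4 of them without line 6B. The causes were not tested. In the paired fits, a difference that is small beside its own variation from line to line is beyond the reach of these arrays.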
